A study of Mus musculus with 4 samples.

Results

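The 10 genes described here, which define the epithelial state and build the tight junction, were examined in 4T1 cells, a mouse breast cancer line, after sorting by mitochondrial membrane potential (MMP). They were chosen by name, with earlier results of these data known. They are the transcription factor genes *Grhl2*, *Ovol1* and *Ovol2* and the splicing regulator genes *Esrp1* and *Esrp2*. The others are the claudin genes *Cldn3*, *Cldn4* and *Cldn7*, the occludin gene *Ocln* and the scaffold gene *Tjp1*. All 10 were among the 20197 genes of the table. The study set 2 libraries of high MMP cells against 2 of low MMP cells. All 4 came from wild-type 4T1 cells grown in one medium and stained with 20 nM MitoSpy Red, a dye that mitochondria take up according to their potential, and the groups were the brightest 5% and the dimmest 5% in the sorter. Each library came from 100000 cells. The study describes the 2 replicates as independent experiments. 4T1 is a single line, and no unsorted or unstained cells are part of the comparison.

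Epithelial cells are held in sheets by junctions at their lateral sides. The tight junction lies nearest to the lumen, where claudins and occludin span the membrane and seal the gap between neighboring cells, and ZO-1, the product of *Tjp1*, ties them to the actin cytoskeleton. GRHL2 and the OVOL factors keep the epithelial program on and oppose ZEB1 in epithelial-to-mesenchymal transition (EMT), whereas ESRP1 and ESRP2 direct splicing towards epithelial isoforms.

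The unit is the normalized read count, with the total of every library set to 20000000. Each difference is the high minus the low MMP mean of log2(normalized reads + 1). Recovered depth was between 22591970 and 26395015 reads per library. The labelled cell type was reflected in its markers, as the summed level of 6 epithelial markers (*Cdh1*, *Epcam*, *Krt7*, *Krt8*, *Krt18* and *Krt19*) was 47117 to 65235 normalized reads. Of 7 leukocyte markers 3 were in the table and summed to 72.0 to 156. Most of this was *Cd68* (59.9 to 149), and *Ptprc* was at most 1.77. Of 5 endothelial markers 2 were in the table and summed to 1.74 to 6.20. Of 7 fibroblast markers 5 were in the table and summed to 343 and 405 in high MMP and 582 and 632 in low MMP libraries, nearly all of it *Pdgfra*, and the defining marker *Col1a1* was between 6.06 and 34.0. Of 52 genes of G2/M phase, 28 had an unadjusted limma p under 0.05, all higher in high MMP cells (median difference 0.31), and of 42 genes of S phase 25, all lower (median -0.36). Of the 6 epithelial markers this held for 1, *Cdh1*, which encodes E-cadherin, with 3903 and 4726 normalized reads in high and 5421 and 5426 in low MMP libraries (difference -0.34, SE 0.12, adjusted p 0.498). Whether *Pdgfra* or the cell cycle genes have a part in the values below was not tested. In sorted bulk samples, fewer cells expressing a gene and less RNA per cell cannot be told apart.

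*Ovol2* had the largest difference of the 10 genes, with about 1.8-fold more reads in high than in low MMP cells, and the next in size were *Ocln*, which was lower, and *Cldn4*, which was higher. *Grhl2* was nearly level. None of the 10 passed an adjusted p of 0.05 in limma, and neither did any gene of the table (0%). At an unadjusted p of 0.05, limma singled out 1 of the 10, *Ovol2*, against 9.96% of all genes. The 2 groups did not overlap for 5 of the 10, 3 higher (*Ovol2*, *Esrp1*, *Cldn4*) and 2 lower in high MMP cells (*Ocln*, *Esrp2*). Over all genes this share was 37.9%, with 13.5% higher and 24.5% lower, so that 5 of 10 genes is not far above the background. The median difference of the 10 genes was 0.03, next to -0.04 for all genes. For 9 of the 10 genes the 95% interval of the difference lay within 2-fold in either direction, and for 1, *Ovol2*, it left out 0. How many of all genes had an interval within 2-fold was not counted. An exact permutation test of 2 against 2 libraries cannot go below p = 0.333.

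**Figure D1:**
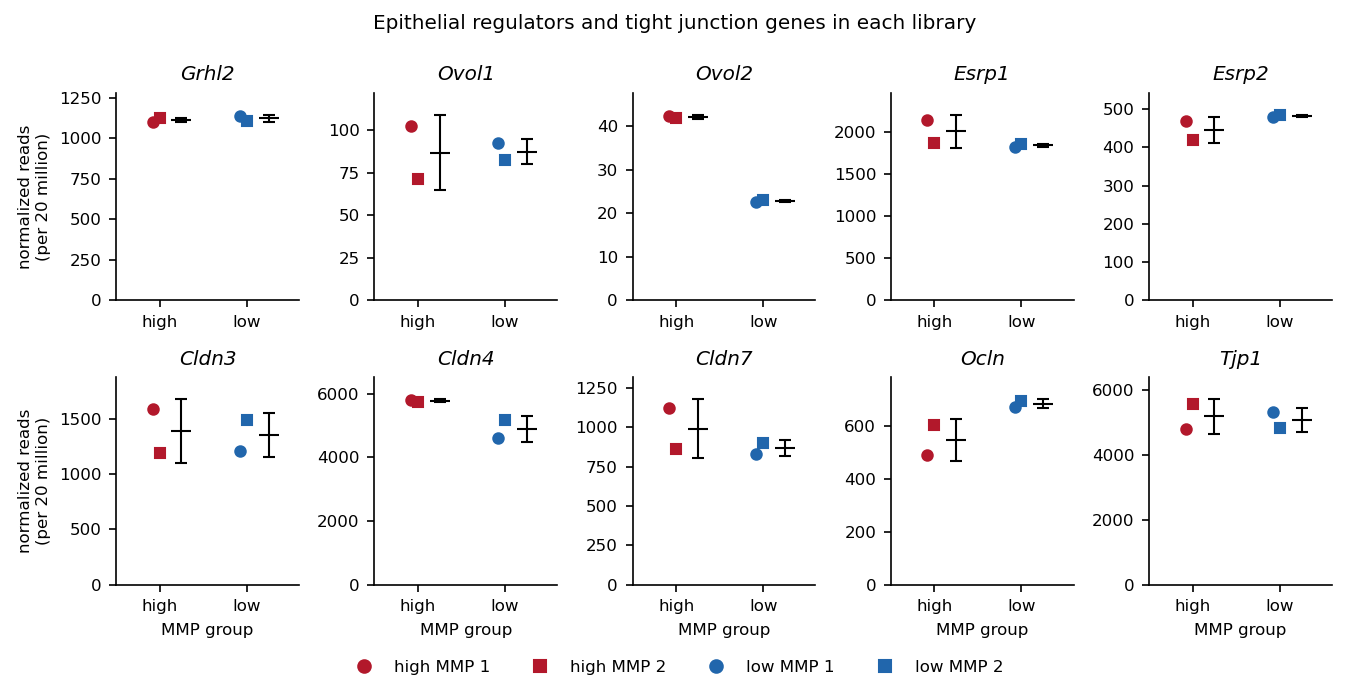
Normalized reads (library total 20000000, vertical axes from 0) of the 10 genes in each library, with circles for replicate 1, squares for replicate 2, and the mean ± SD of each group (n = 2) beside them. The *Ovol2* points of the groups do not overlap, at 42.4 and 41.8 (56 and 50 reads) against 22.7 and 23.0 (26 and 26 reads). *Grhl2* was between 1102 and 1138 in every library.

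Per length of exon, *Cldn4* and *Cldn3* led the 10. Averaged over the 4 libraries, *Cldn4* had 2937 ± 314 normalized reads per kb (SD, n = 4), *Cldn3* 1089 ± 161, *Tjp1* 657 ± 48.3, *Cldn7* 478 ± 68.1 and *Esrp1* 306 ± 23.5. *Ocln* (145 ± 21.7), *Grhl2* (130 ± 1.81) and *Esrp2* (107 ± 6.77) followed, and *Ovol1* (25.0 ± 3.83) and *Ovol2* (15.4 ± 5.27) were the lowest. *Ocln* and *Grhl2* were the only neighbors in this order whose values overlapped between libraries. Among the 10, the claudin and ZO-1 transcripts were thus the most abundant, and those of both OVOL factors the rarest.

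**Figure D2:**
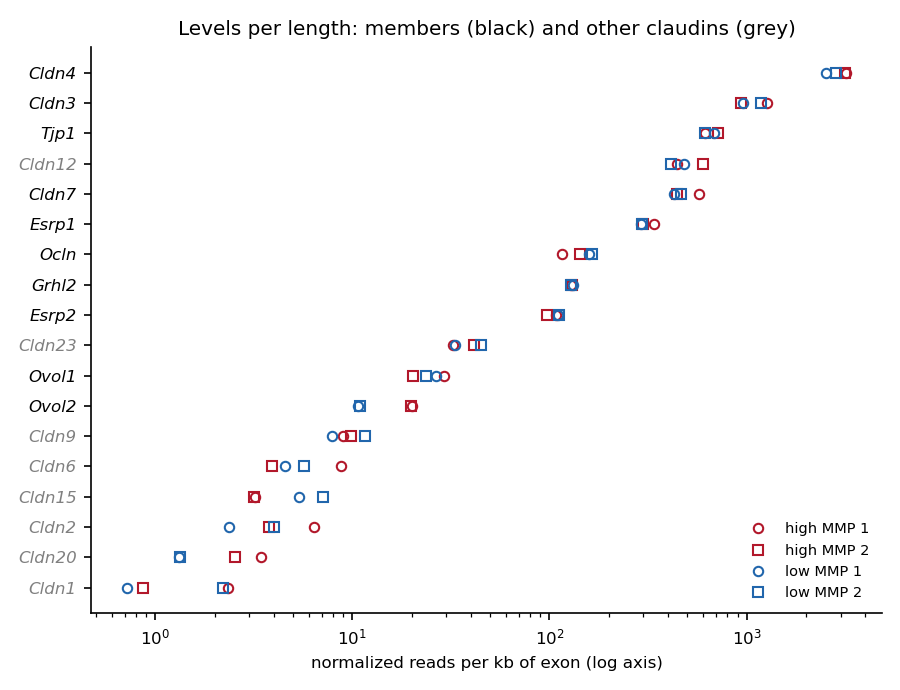
Normalized reads per kb of exon (horizontal, log axis) of the 10 genes (black names) and of the other claudin genes in the table (grey names), 1 point per library. *Cldn4* is at 2527 to 3199 and *Ovol2* at 10.7 to 20.1, and most other claudins lie below *Ovol2*.

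*Ovol2* encodes a zinc finger repressor that blocks EMT genes (ENSMUSG00000037279, GRCm38 chromosome 2, 144305175 to 144332146, minus strand). It had 42.4 and 41.8 normalized reads in high MMP and 22.7 and 23.0 in low MMP libraries. The libraries of each group were almost equal, and both high MMP values lay above both low MMP values. The means were 42.1 ± 0.418 and 22.8 ± 0.248 (SD, n = 2 each). The log2 difference was 0.86 (SE 0.21, 95% interval 0.27 to 1.44), with an unadjusted limma p of 0.0144 and an adjusted p over all genes of 0.472. By unadjusted p it ranked 463 of 20197 genes. Few reads stand behind these values, 56 and 50 for high MMP and 26 and 26 for low MMP. The exact Poisson 95% interval, which covers counting error only, ran from 32.1 to 55.1 and from 31.1 to 55.2 normalized reads for high MMP, and from 14.8 to 33.2 and from 15.0 to 33.7 for low MMP. The replicates agreed more closely than counting error alone would give, and the intervals of high and low MMP libraries overlapped at their ends. With each library left out in turn, the difference stayed between 0.84 and 0.87. The unadjusted p was 0.0567 in limma with same-numbered libraries as blocks, 0.0618 in DESeq2 and 0.0115 in edgeR with no block. On the recovered reads *Ovol2* was not called by edgeR's quasi-likelihood test (adjusted p 0.689) or by DESeq2 (0.989), which called 0% and 0.985% of the genes they tested. It was not called by edgeR with same-numbered libraries as blocks either (0.525% of genes), whereas edgeR with crossed numbers as blocks, a fit chosen after the data were seen, called it (adjusted p 0.0330, 3.63% of genes). The antisense gene *1700108N11Rik* shares 359 exon bases with *Ovol2* on the opposite strand. In all, 6 of the 10 genes share exon bases with a gene on the opposite strand (*Ovol2*, *Ovol1*, *Grhl2*, *Esrp1*, *Esrp2* and *Cldn3*). The libraries were made with a stranded kit, but whether the counting used strand is not stated, and if it did not, reads from the shared bases cannot be told apart.

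The other member of the family followed no such pattern. *Ovol1*, also a zinc finger repressor, had 102 and 71.1 normalized reads in high MMP and 92.4 and 82.3 in low MMP libraries, so the high MMP libraries enclosed the low. Its difference was -0.03 (SE 0.24, 95% interval -0.67 to 0.61, limma adjusted p 0.994), on 85 to 135 reads per library, and its sign depended on the scaling. The ratio of *Ovol1* to *Ovol2* per kb, which does not depend on the scaling of a library, was 1.46 and 1.03 in high MMP and 2.47 and 2.17 in low MMP libraries. *Ovol1* thus stood above *Ovol2* in all 4 libraries, by less in the high MMP libraries (exact permutation test, two-sided p = 0.333, the smallest possible, 0.4995 adjusted over the 6 ratios computed between these genes). In high MMP replicate 2 the order was within counting error, on 85 reads of *Ovol1* and 50 of *Ovol2*.

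*Grhl2* encodes a grainyhead factor that directly activates claudin and cadherin genes (ENSMUSG00000022286, chromosome 15, 37233036 to 37363569). It had 1102 and 1123 normalized reads in high MMP and 1138 and 1109 in low MMP libraries. The groups overlapped within a narrow range. The difference was -0.01 (SE 0.07, limma adjusted p 0.994), and its 95% interval, -0.21 to 0.19, corresponds to a ratio of 0.863 to 1.14. The sign of so small a value turned with the scaling of the libraries.

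The proximal sequence of *Ovol2* is shown because this gene differed most of the 10. That of *Cldn4* is shown because it was the most abundant of the 10 and, of their claudins, the one that differed most. Both are the 250 bases before the transcription start in RefSeq on GRCm38.p6, written 5′ to 3′ on the strand of the gene, with capitals for the E-box letters CAGGTG or, on the other strand, CACCTG, which ZEB and SNAI repressors bind. The *Ovol2* window is chr2:144331363-144331612 (minus strand) and the *Cldn4* window chr5:134946935-134947184 (minus strand). The *Ovol2* window lies inside the span of the gene given above, because GENCODE places the first start of the gene farther upstream than RefSeq does, whereas the *Cldn4* window lies directly upstream of the span.
Ovol2: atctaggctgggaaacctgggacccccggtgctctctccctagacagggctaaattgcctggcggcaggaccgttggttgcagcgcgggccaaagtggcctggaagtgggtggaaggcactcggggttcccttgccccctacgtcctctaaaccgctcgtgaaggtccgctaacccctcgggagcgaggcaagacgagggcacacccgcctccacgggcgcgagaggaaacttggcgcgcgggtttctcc
Cldn4: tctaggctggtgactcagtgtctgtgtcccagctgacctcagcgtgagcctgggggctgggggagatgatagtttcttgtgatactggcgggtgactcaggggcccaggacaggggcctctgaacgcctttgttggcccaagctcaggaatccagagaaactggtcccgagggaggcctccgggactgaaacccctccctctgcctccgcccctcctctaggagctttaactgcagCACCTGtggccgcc

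The *Cldn4* window holds 1 E-box, which starts 14 bases before the transcription start, and the *Ovol2* window holds none. Of the 10 genes, 6 had a window in the table (*Ovol2*, *Cldn3*, *Cldn4*, *Cldn7*, *Ocln* and *Tjp1*), and *Grhl2*, *Ovol1*, *Esrp1* and *Esrp2* had none. Where RefSeq gave several windows for a gene, that of the outermost start was used. Searched on both strands, the E-box was in 1 of the 6 windows and in 17.2% of all 32851 windows of this length. The letters AACCNGGTT, taken as a grainyhead site, were in 0 of the 6 (0.240% of all). A grainyhead site without the middle base N would not match AACCNGGTT and was not searched for. The OVOL letters CCGTTA were in 0 of the 6 (2.18% of all). No matches overlapped each other. A missing match says only that these letters are not in this window.

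The ESRP genes encode RNA-binding proteins that promote epithelial exons, for example in *Fgfr2* and *Cd44*. *Esrp1* (ENSMUSG00000040728, chromosome 4, 11331933 to 11386783) had 2149 and 1874 normalized reads in high MMP and 1831 and 1858 in low MMP libraries. Both high values were above both low ones, but high MMP replicate 2 was above them by little. The difference was 0.12 (SE 0.10, 95% interval -0.15 to 0.39, limma adjusted p 0.788), and without high MMP replicate 1 it was 0.02. *Esrp2* (ENSMUSG00000084128, chromosome 8, 106130319 to 106136974) had 469 and 420 normalized reads in high MMP and 480 and 483 in low MMP libraries, a difference of -0.12 (SE 0.10, 95% interval -0.38 to 0.15, limma adjusted p 0.795). Both high values were below both low ones, the first by little, and without high MMP replicate 2 the difference was -0.04. Between the 2 genes the balance was steady within each group. *Esrp1* exceeded *Esrp2* per kb by 3.15 and 3.07 times in high MMP and by 2.62 and 2.65 times in low MMP libraries (exact permutation test, two-sided p = 0.333, adjusted 0.4995). The protein-coding gene *Nfatc3* shares 219 exon bases with *Esrp2* on the opposite strand. Values per gene do not show which isoforms the ESRP targets used.

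Of the claudin genes among the 10, *Cldn4* differed most. It encodes a claudin of tight epithelia (ENSMUSG00000047501, chromosome 5, 134945119 to 134946934) and had 5810 and 5752 normalized reads in high MMP and 4590 and 5182 in low MMP libraries. The high MMP libraries were nearly equal and lay above both low MMP libraries. The means were 5781 ± 41.5 and 4886 ± 419 (SD, n = 2 each), 1.18 times as many reads, with a log2 difference of 0.25 (SE 0.10, 95% interval -0.03 to 0.52), an unadjusted limma p of 0.0664 and an adjusted p of 0.549. The value was 0.16 without low MMP replicate 1 and 0.33 without low MMP replicate 2.

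*Cldn3*, another barrier-forming claudin (ENSMUSG00000070473, chromosome 5, 134986214 to 134987472), had 1593 and 1187 normalized reads in high MMP and 1213 and 1493 in low MMP libraries. The groups overlapped completely, with a difference of 0.03 (SE 0.19, 95% interval -0.49 to 0.55, limma adjusted p 0.994). *Cldn3* and *Cldn4* lie 39.3 kb apart on opposite strands, with no other gene of the table lying wholly between them. In this comparison 1 separated the groups and the other did not. *Cldn7*, which is also found along the basolateral membrane (ENSMUSG00000018569, chromosome 11, 69964779 to 69967885), had 1124 and 861 normalized reads in high MMP and 833 and 904 in low MMP libraries. Its high MMP replicate 1 was above the other 3 libraries. The difference was 0.18 (SE 0.16, 95% interval -0.24 to 0.61, limma adjusted p 0.806), and without that library it was -0.01.

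Among the 11 claudin genes in the table, *Cldn4* made up 59.2% ± 2.13 of the claudin level per kb for high and 56.9% ± 0.302 for low MMP (SD, n = 2 each). *Cldn3*, *Cldn4* and *Cldn7* together made up 89.0% ± 2.59 and 89.1% ± 1.59, and *Cldn12* most of the rest (9.76% ± 2.54 and 9.55% ± 1.81). The joint share of the 3 differed between the groups by less than the SD within either.

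*Ocln* encodes occludin, a membrane protein of the junction that is dispensable for its assembly but takes part in its regulation (ENSMUSG00000021638, chromosome 13, 100496507 to 100552718). It had 489 and 601 normalized reads in high MMP and 670 and 694 in low MMP libraries. Both high MMP libraries were below both low MMP libraries, and the gap between replicates was wider in high than in low MMP cells. The means were 545 ± 78.7 and 682 ± 16.7 (SD, n = 2 each), a ratio of 0.799. The log2 difference was -0.33 (SE 0.13, 95% interval -0.68 to 0.02), with an unadjusted limma p of 0.0590 and an adjusted p of 0.527. The size depended on the high MMP libraries, at -0.18 without replicate 1 and -0.48 without replicate 2.

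*Tjp1*, which encodes the scaffold ZO-1 (ENSMUSG00000030516, chromosome 7, 65296165 to 65527781), had 4817 and 5568 normalized reads in high MMP and 5333 and 4822 in low MMP libraries. The groups overlapped, with a difference of 0.03 (SE 0.12, 95% interval -0.29 to 0.35, limma adjusted p 0.988). The ratio of *Tjp1* to *Ocln* per kb was 5.32 and 5.01 in high MMP and 4.30 and 3.76 in low MMP libraries, so ZO-1 transcripts outnumbered occludin transcripts in every library and by more in the high MMP libraries (exact permutation test, two-sided p = 0.333, adjusted 0.4995). Of the other ratios computed, *Cldn4* to *Cldn3* and *Cldn4* to *Cldn7* overlapped between the groups, and *Cldn3* to *Cldn7* did not. How often the ratios of other gene pairs separate the groups was not tested.

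**Figure D3:**
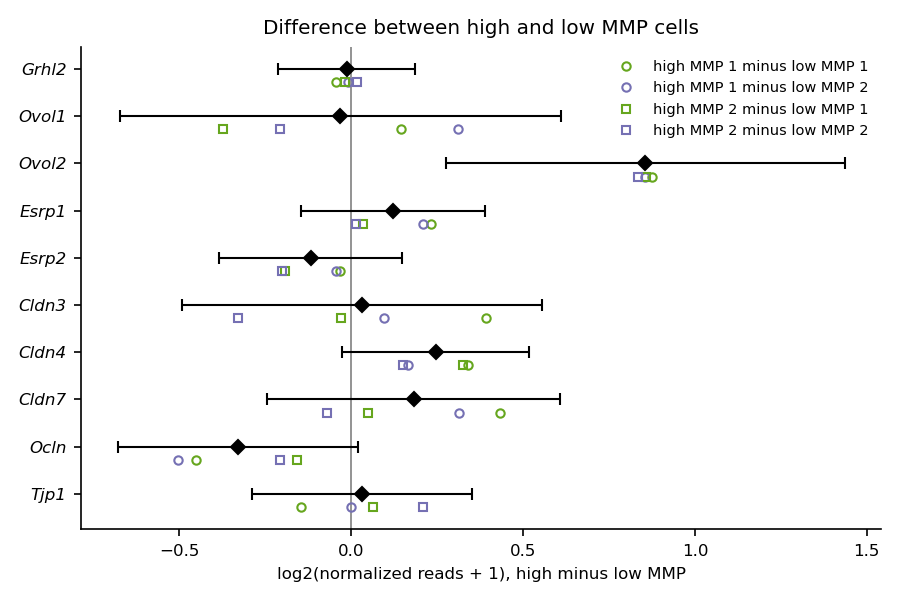
High minus low MMP in log2(normalized reads + 1), horizontal axis, with diamonds and bars for the limma estimate and its 95% interval, and below each the 4 differences between single libraries. For *Ovol2* these 4 lie between 0.83 and 0.88, and for *Ovol1*, *Cldn3* and *Cldn7* they fall on both sides of 0.

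For 7 of the 10 genes the high MMP libraries were farther apart than the low MMP libraries, but not for *Grhl2*, *Ovol2* and *Cldn4*. The share of all genes for which this held was not counted. Over the 12902 genes that averaged 10 normalized reads or more, the median gap between replicates was 0.213 in high and 0.110 in low MMP cells (log2). Among these 7, high MMP replicate 1 had the higher value of its group for *Ovol1*, *Esrp1*, *Esrp2*, *Cldn3* and *Cldn7* and the lower for *Ocln* and *Tjp1*. From highest to lowest, *Cldn3* placed the libraries as high MMP 1, low MMP 2, low MMP 1 and high MMP 2, which is the order of the keratin genes *Krt7*, *Krt8*, *Krt18* and *Krt19*, and *Tjp1* placed them in the reverse order. These orders were picked out after the values were seen and are a description only.

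Other genes of the same pathways were then examined. Of 25 other claudin genes, 8 were in the table, and 0 had an unadjusted limma p under 0.05. Their median difference was 0.17, but only 4 of them had a mean of at least 10 normalized reads. *Cldn12* had 2210 ± 484 normalized reads for high and 1893 ± 207 for low MMP (difference 0.21, SE 0.19), *Cldn2*, a pore-forming claudin, 16.9 ± 6.13 and 10.6 ± 3.84 (0.63, SE 0.44), and *Cldn23* 68.0 ± 11.5 and 72.1 ± 15.7 (-0.08, SE 0.25; SD, n = 2 each).

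Of 33 other tight junction and polarity genes, 32 were in the table, with a median difference of 0.06. An unadjusted limma p under 0.05 was reached by 2 genes, both higher in high MMP cells, or 2 of 32 against 9.96% of all genes. They were *Ildr1*, an angulin of tricellular junctions, with 8 and 8 reads in high and 1 and 1 in low MMP libraries, and *Jam2*, a junctional adhesion molecule, with 2 and 1 reads against 0 and 0. Both were named after their values were seen, and no fold is given at this depth. Of the better measured genes, those of smallest p were *Sympk*, which encodes symplekin, a junction plaque and RNA processing protein (difference -0.19, SE 0.09), *Amotl1*, an angiomotin of the junction (0.18, SE 0.10), and *Lsr*, another angulin (-0.15, SE 0.09), each with a limma adjusted p between 0.628 and 0.694. *Marveld2*, the relative of occludin at tricellular junctions and its near neighbor on chromosome 13, had 506 ± 131 normalized reads for high and 470 ± 33.4 for low MMP (SD, n = 2 each), a difference of 0.08, and was also named after its value was seen.

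Of 17 other epithelial transcription factor genes, 14 were in the table, with a median difference of 0.15. The only 1 with an unadjusted limma p under 0.05 was *Tfcp2l1*, which belongs to the same superfamily as *Grhl2*, with 94.7 and 93.7 normalized reads in high and 68.0 and 62.9 in low MMP libraries (difference 0.52, SE 0.15, adjusted p 0.472). *Klf5*, a factor of epithelial growth, had 2078 ± 129 normalized reads for high and 1809 ± 226 for low MMP (SD, n = 2 each), a difference of 0.20 (SE 0.12). Of 12 other splicing regulators, all 12 were in the table, with a median of 0.09, and *Mbnl2* alone had an unadjusted limma p under 0.05 (0.24, SE 0.08, adjusted p 0.472). *Ptbp2*, a repressor of exon inclusion, differed by -0.31 (SE 0.13) and *Celf1* by 0.14 (SE 0.08).

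Of 6 EMT factors that oppose these regulators, 5 were in the table, with a median difference of -0.14. An unadjusted limma p under 0.05 was reached by 0 of them. *Snai1* differed by 0.03 (SE 0.17), and *Snai2* had only 1 to 6 reads per library. *Zeb2* had 1053 ± 218 normalized reads for high and 1146 ± 68.3 for low MMP, and *Twist1* 507 ± 27.7 and 604 ± 56.3 (SD, n = 2 each), differences of -0.14 (SE 0.17) and -0.25 (SE 0.11). *Zeb1*, an antagonist of *Ovol2* and *Grhl2*, was low throughout, with 15.2 and 18.4 normalized reads in high and 23.5 and 17.7 in low MMP libraries (-0.27, SE 0.30, limma adjusted p 0.855). The groups overlapped for *Zeb1*, and no difference was detectable at 20 to 27 reads per library.

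**Figure D4:**
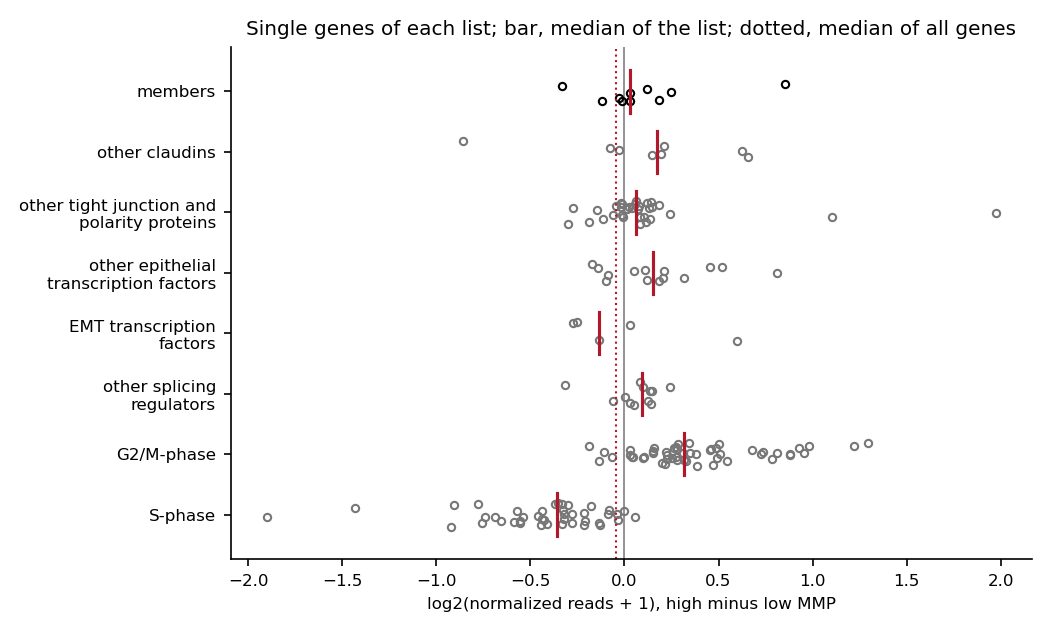
High minus low MMP in log2(normalized reads + 1), horizontal axis, for each gene (point) of 8 lists, with the median of the list as a bar and that of all genes (-0.04) as a dotted line. The 10 genes have a median of 0.03, and the lists of G2/M and of S phase, at 0.31 and -0.36, lie on either side.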

How the data were processed

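RNA was sequenced from 4 sorted samples, 2 per group, with groups and replicate numbers taken from the sample titles. The authors aligned reads to GRCm38 (mm10) with STAR (the labels also name HTSeq), counted them per gene, divided by library size and kept only genes expressed in enough samples (here every gene was above 0 in at least 2 libraries). Versions, the annotation and the use of strand are not given in the sources used here. The deposited values are therefore a library-size normalized signal per gene. Whole reads were recovered from the step between values (100.0% of values whole within 0.1), and replicates differed by more than sampling noise (chi-square per gene 43.2 in high and 9.08 in low MMP cells). Symbols, positions and exon lengths came from GENCODE M21, which matched 19993 of 20197 identifiers, and the lists of other genes were compiled by hand.

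log2(value + 1) was tested with limma 3.58.1 (trend, group only) in R 4.3.3, adjusted by Benjamini-Hochberg over all genes at 0.05. Count tests on the recovered reads (edgeR 4.0.16, DESeq2 1.42.0), other pseudocounts, filters, scalings and replicates left out were alternatives. Fits were tested on simulated data. Because of the added 1, changes of low genes come out too small. Named were the 10 genes and, of each other list, genes past the adjusted threshold or otherwise the 3 of smallest p whose mean was 10 or more, and for marker and cell cycle lists the defining markers and medians. A gene that this rule would name is not reported here. Members and lists were chosen with earlier results of these data known.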

Additional observations from a re-analysis of the deposited data

How the results depend on the processing

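No gene passed in limma under the alternative pseudocounts, filter, scalings, variance model or with a library left out (0 to 0 genes over the libraries left out, and 0 to 0 of the 10 genes and of the other listed genes). On recovered reads, edgeR with no block called 0 genes, edgeR with the replicate block 106 (0 of the 10), and DESeq2 118 (0 of the 10). In limma the replicate block gave 0 genes and 0 of the 10. Same-numbered libraries did not deviate together (correlation -0.421 over 12902 genes), and the sources used here do not say which were sorted together, so the numbers were not used as pairs. Crossed numbers as the block, an alternative chosen after seeing the data, gave 0 genes in limma and 733 in edgeR, 1 of them, *Ovol2*, among the 10. After quantile normalization the groups did not overlap for 3 of the 10 in place of 5, as *Esrp1* and *Esrp2* then overlapped. *Grhl2* turned to 0.028 with median-of-ratios rescaling, 0.010 with quantile normalization, 0.024 in the 3 edgeR fits and 0.027 in DESeq2, and *Ovol1* to 0.0094, 0.047, 0.030 (edgeR, no block), 0.010 (replicate block), 0.019 (crossed) and 0.034 (DESeq2). With libraries left out, *Grhl2* ranged from -0.032 to 0.0045, *Ovol1* from -0.29 to 0.23, *Cldn3* from -0.18 to 0.24, *Cldn7* from -0.011 to 0.37 and *Tjp1* from -0.074 to 0.13. The cause was not tested. *Ovol2*, *Esrp1*, *Esrp2*, *Cldn4* and *Ocln* kept their direction in all 16 alternatives, and 20 of the 160 values of the 10 genes turned.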
